A study of Mus musculus with 2 samples.

Results

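The endosomal Toll-like receptors and their adaptors were followed as 10 named genes among the 17751 genes of a CITE-seq data set of mouse spleen dendritic cells (DCs): the receptors Tlr3, Tlr7, Tlr8, Tlr9, Tlr11, Tlr12 and Tlr13, the chaperone Unc93b1, and the adaptors Myd88 and Ticam1. The members were taken by name and not by their measured values, and all 10 were found in the tables. CITE-seq reads the transcripts and the antibody-tagged surface proteins of single cells; only the transcripts were used here. Live CD11c+ MHCII+ cells were sorted from spleens depleted of T and B cells, from C57BL/6 mice (WT) and from Batf3-/- mice, which were female and 8 weeks old in both groups. Per the paper, WT mice came from an outside supplier, whereas Batf3-/- mice were purchased elsewhere and bred in house. Genotype and mouse source thus cannot be told apart. Batf3-/- mice lack a transcription factor of conventional DC type 1 (cDC1), and the knockout is germline. Spleens were pooled within a genotype and the experiment was done once, so that each genotype is 1 library, no difference between genotypes had a replicate check, and no test could be made.

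Endosomal Toll-like receptors sense nucleic acids and microbial proteins after a cell has taken them up. TLR3 binds double-stranded RNA and signals through TICAM1 (TRIF). TLR7 and TLR8 bind single-stranded RNA and its breakdown products, TLR9 binds unmethylated CpG DNA, TLR13 binds a sequence of bacterial 23S ribosomal RNA, and TLR11 and TLR12 bind profilin of Toxoplasma, all through MYD88. UNC93B1 carries these receptors from the endoplasmic reticulum to endosomes. In mice, TLR3, TLR11 and TLR12 are known from cDC1, and TLR7 and TLR9 from plasmacytoid DCs (pDCs).

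All 10 are protein-coding genes of GRCm38, the build to which the authors aligned their reads. Tlr3 lies on the minus strand at chr8:45395665-45411080 with 7 exons in its principal transcript, Tlr11 on the plus strand at chr14:50357914-50363663 with 2 exons, and Tlr12 on the minus strand at chr4:128615443-128618619 with 1 exon. Tlr7 (chrX:167304929-167330558), Tlr8 (chrX:167242696-167264329) and Tlr13 (chrX:106143204-106160493) are X-linked. Tlr9 (chr9:106222598-106226883) and Myd88 (chr9:119335934-119341411) share a chromosome, Unc93b1 lies at chr19:3935186-3949340 and Ticam1 at chr17:56269319-56276786. Because Tlr3, Tlr11 and Tlr12 shared their high levels in cDC1 clusters of WT, the 250 bases before the RefSeq start of each (GRCm38.p6) are shown, written 5′ to 3′ on the gene's own strand, with the matched motifs in capitals.
Tlr3 promoter, chr8:45410381-45410630, minus strand: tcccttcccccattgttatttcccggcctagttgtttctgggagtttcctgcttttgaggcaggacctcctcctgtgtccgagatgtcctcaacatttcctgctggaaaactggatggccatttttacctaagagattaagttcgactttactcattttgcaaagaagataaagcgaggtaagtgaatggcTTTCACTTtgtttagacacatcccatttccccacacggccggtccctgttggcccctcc
Tlr11 promoter, chr14:50357664-50357913, plus strand: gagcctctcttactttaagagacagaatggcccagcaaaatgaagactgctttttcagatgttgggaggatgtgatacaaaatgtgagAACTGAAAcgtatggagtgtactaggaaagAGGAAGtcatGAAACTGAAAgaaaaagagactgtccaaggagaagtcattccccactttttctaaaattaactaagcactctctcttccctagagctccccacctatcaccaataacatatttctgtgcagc
Tlr12 promoter, chr4:128618620-128618869, minus strand: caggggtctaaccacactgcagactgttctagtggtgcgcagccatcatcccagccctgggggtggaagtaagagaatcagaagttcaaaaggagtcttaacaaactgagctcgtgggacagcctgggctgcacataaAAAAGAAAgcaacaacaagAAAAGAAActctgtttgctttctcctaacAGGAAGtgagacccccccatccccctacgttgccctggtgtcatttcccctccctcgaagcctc
The RefSeq start used for Tlr3 lies inside the longer gene span given above. Motifs were searched by their letters on both strands: AANNGAAA, the core bound by interferon regulatory factors, GAAA and GAAA with 2 bases of any kind between them, in which that core is paired, GGAA and GAAA with 2 bases of any kind between them, an ETS-IRF composite, TGANTCA, an AP-1 site, and AGGAAG, a PU.1-type ETS site. AANNGAAA can lie within a paired or composite match. The Tlr3 window held 1 AANNGAAA match, on the opposite strand and 59 bases before the start. The Tlr11 window held AANNGAAA at 162 and 120 bases, the paired core at 122 bases and AGGAAG at 132 bases before the start. The Tlr12 window held AANNGAAA at 112 and 93 bases and AGGAAG at 64 bases before the start. Of the other 5 members with a window, Myd88 held AANNGAAA at 38 and the paired core at 40 bases, Tlr9 held TGANTCA at 58 and AGGAAG at 111 bases, Tlr13 and Ticam1 held AGGAAG alone, and Tlr8 held none of the motifs. Of 32817 RefSeq promoter windows of the same length, 21.3% held AANNGAAA, 2.97% the paired core, 2.3% the composite, 6.75% TGANTCA and 29.5% AGGAAG. These matches describe the letters of the windows and nothing about binding.

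The WT library held 12224 cells with 122530055 UMIs (unique molecular identifiers, each counting 1 captured transcript), a median of 8374.5 per cell, and the Batf3-/- library held 12119 cells with 114517073 UMIs, a median of 8516. Levels are given as CPM, the UMIs of a gene per 1000000 UMIs of all genes in the same cells, summed over the cells of a cluster and library, with exact Poisson 95% intervals. These and all other intervals cover counting error only. Levels are compared within a gene, not between genes. The 20 clusters are the authors' (C0 to C19), with the names their study gave; they were built from the same transcripts, so that levels by cluster are a description. Batf3 itself was at 206 CPM in the WT and 2.49 CPM in the Batf3-/- library, as the labels state. The immature and mitotic cDC1 clusters C4 and C6 carried 2807 and 2261 CPM of the 6 cDC1 markers (Xcr1, Clec9a, Naaa, Cadm1, Wdfy4, Gcsam) in WT, C14 carried 9093 CPM of 6 pDC markers and C15 13176 CPM of 6 monocyte markers. In Batf3-/-, C6 carried 433 CPM of the cDC1 markers, against 267 CPM in C0, so that its cDC1 name rests on less there, and C4 (31 cells), C12 (31), C17 (1) and C18 (2) were nearly empty. Scrublet marked 4.43% of WT and 2.01% of Batf3-/- cells as doublets, which were kept, and 56 cell barcodes occurred in both libraries.

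In WT, Tlr3, Tlr11 and Tlr12 were high in the immature and mitotic cDC1 clusters C4 and C6 but not in mature cDC1 (C12), and Tlr12 was higher still in a small cluster of mixed identity. Of the UMIs of each gene in the WT library, 93.3% for Tlr3, 85.8% for Tlr11 and 82.2% for Tlr12 fell in C4 and C6, against 4.27% for Tlr7, 24.7% for Tlr9, 39.1% for Tlr13, 43.3% for Unc93b1, 35.1% for Myd88 and 51.8% for Ticam1. C4 and C6 held 40.7% of all UMIs of that library. In Batf3-/- the shares in C4 and C6 were 72.8% for Tlr3, 26.4% for Tlr11 and 45.8% for Tlr12. These clusters held 12.2% of all UMIs there. Tlr3, the sensor of double-stranded RNA, was at 107 CPM (95% interval 104 to 111) in C4, 90.9 CPM (86.2 to 95.8) in C6, 89.9 CPM (55.7 to 137) in the cDC1 mitochondrial cluster C17 and 60.4 CPM (40.8 to 86.2) in the cDC1 ribosomal cluster C18. C4 stood apart from C6, whereas C6, C17 and C18 overlapped their neighbours in the order. No other WT cluster passed 27.0 CPM, the level in the monocyte cluster C15. In Batf3-/-, Tlr3 was at 55.2 CPM (36.1 to 81.0) in the 31 cells of C4 and 33.2 CPM (30.2 to 36.4) in C6, and at or below 3.13 CPM elsewhere among clusters of at least 20 cells.

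Tlr11, one of the pair of profilin receptors, was at 163 CPM (115 to 223) in C17, from 38 UMIs, at 80.3 CPM (77.4 to 83.4) in C4, 50.3 CPM (32.6 to 74.3) in C18 and 47.4 CPM (44.0 to 50.9) in C6 of WT. C17 stood above C4 and C4 above C18, while C18 and C6 overlapped. C17 cells carried a mean of 13.4% mitochondrial UMIs and a median of 2348 UMIs, values whose part in the Tlr11 level was not tested. Tlr12, the other profilin receptor, was at 39.8 CPM (37.7 to 42.0) in C4, 30.0 CPM (12.1 to 61.8) in C17 and 27.3 CPM (24.8 to 30.0) in C6 of WT. In contrast with immature C4, the largest Sirpa+ cluster C0 (immature cDC2a) held 4.72 CPM of Tlr3, 4.81 CPM of Tlr11 and 0.779 CPM of Tlr12. C4 over C0 in WT gave log2 ratios of 4.50 (4.22 to 4.8) for Tlr3, 4.06 (3.78 to 4.36) for Tlr11 and 5.67 (4.99 to 6.46) for Tlr12, among 4 of 9 members with at least 20 UMIs that differed by at least 2-fold, where 25.8% of all 11999 genes did so. The fourth was Tlr7, at 25.3 CPM in C0 and 1.43 CPM in C4 (log2 ratio -4.14, -4.59 to -3.72).

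**Figure D1:**
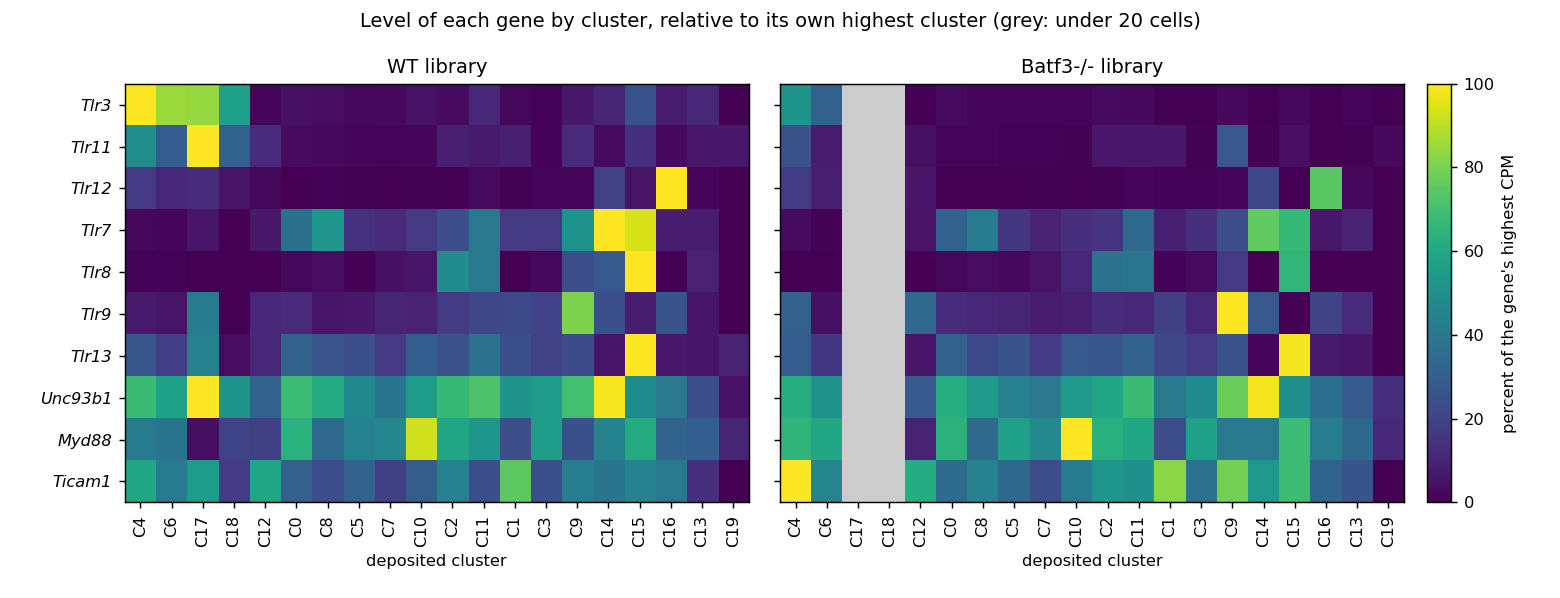
Level of each of the 10 genes (rows) in each deposited cluster (columns), as a percent of that gene's highest CPM over both libraries, WT on the left and Batf3-/- on the right; grey marks clusters under 20 cells. Tlr3 peaks in C4 at 107 CPM, Tlr12 in C16 at 234 CPM and Tlr7 in C14 at 68.6 CPM of WT, while Unc93b1 is spread over most clusters.

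At the level of single cells these transcripts were sparse. With each cell thinned to 1000 UMIs, 10.4% of C4 cells in WT had a Tlr3 UMI (Clopper-Pearson 95% interval 9.2 to 11.8), against 0 of 188 lymphoid cells of C13, which allows up to 1.6% of cells with a UMI at this depth (3 counts of the total) and sets no limit on cells that express the gene; before thinning the shares were 68.3% at a median of 15398.5 UMIs per cell and 0.532% at a median of 4182.5. The Tlr11 share in the same thinned cells was 8.41% in C4 and 0.532% in the lymphoid cells. The Tlr12 share was 4.04% in C4 and 0 of 188 in the lymphoid cells. Thinned to 5000 UMIs, the WT C4 cells held a UMI of Tlr3 in 38.5%, of Tlr11 in 32.4% and of Tlr12 in 17.6%, and at least 1 of the 3 in 63.3% of 2153 cells. Tlr3 and Tlr11 were seen together in 14.4% of these cells, where the product of the single shares is 12.5%. For Tlr3 with Tlr12 the shares were 7.57% and 6.75%, and for Tlr11 with Tlr12 6.22% and 5.69%. The observed shares lay above their products at this depth. Thinned to 1000 UMIs, Tlr3 with Tlr11 was at 1.23% against 0.878%, and at 2000 UMIs Tlr3 with Tlr12 was at 2.05% against 1.5% and Tlr11 with Tlr12 at 1.23% against 1.25%. Across the 19 WT clusters of at least 50 cells, log2(CPM + 1) of Tlr3 and Tlr11 had a Pearson r of 0.81, of Tlr3 and Tlr12 of 0.63 and of Tlr11 and Tlr12 of 0.40. The clusters share a library and were built from these transcripts.

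In C13, C14 and C15 of WT, Tlr3 and Tlr11 levels were lower without marked doublets, and the cDC1 markers there were higher than in Batf3-/-. Tlr3 was at 27.0 CPM in C15, 12.3 CPM in C13 and 10.9 CPM in C14 of WT, and at 2.29, 1.74 and 0 CPM in the same Batf3-/- clusters. The summed 6 cDC1 markers were at 851, 318 and 338 CPM in these WT clusters and at 133, 77.2 and 230 CPM in Batf3-/-, and 8.28%, 17% and 16.2% of the WT cells were marked as doublets. Without the marked cells, Tlr3 was at 19.98 CPM in C15, 6.68 CPM in C13 and 3.52 CPM in C14 of WT, and Tlr11 went from 22.7 to 18.9 CPM in C15, from 10.3 to 6.68 CPM in C13 and from 4.49 to 2.64 CPM in C14. The part of other cells' RNA in these levels was not tested. Within C13 of WT, 18 of the 19 Tlr3 UMIs came from the 45 cells that the authors' SingleR labels call DC, and 1 from the 188 cells with a lymphoid label.

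Tlr11 was also present in Sirpa+ clusters of both libraries. In the Il4i1+ mature cDC2 cluster C1 it was at 14.3 CPM (11.2 to 18) in WT and 11.4 CPM (9.66 to 13.3) in Batf3-/-, and in the immature cDC2b cluster C2 at 14.4 CPM (11.9 to 17.2) and 10.4 CPM (8.88 to 12.2). Per 1000 UMIs of the cDC1 markers, C1 held 87.3 Tlr11 UMIs in WT and 146 in Batf3-/-, and C2 held 56.1 and 57.6, against 28.6 in C4 and 63.5 in C12 of WT. The other 7 clusters of immature, mitotic or mature cDC2 and Sox4+ cDC of WT held between 5.49 (C3) and 29.4 (C11), and the mitochondrial cDC2 cluster C9 held 48.6 in WT and 201 in Batf3-/-. Without marked doublets Tlr11 was at 14.6 and 11.1 CPM in C1, and the part of cDC1 RNA in these levels was not tested. The highest pooled level of Tlr11 in Batf3-/- was in C9, a cDC2 mixed mitochondrial cluster, at 44.0 CPM (31.1 to 60.4) against 20.2 CPM (10.4 to 35.2) in WT, from 38 and 12 UMIs. It overlapped C4 of Batf3-/- at 42.5 CPM (26.0 to 65.6), which was the higher of the pair by the mean of cells and without mitochondrial and ribosomal UMIs. C9 cells had medians of 1467 and 1487 UMIs and 13.8% and 13.2% mitochondrial UMIs in WT and Batf3-/-, whose part in the Tlr11 levels was not tested.

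**Figure D2:**
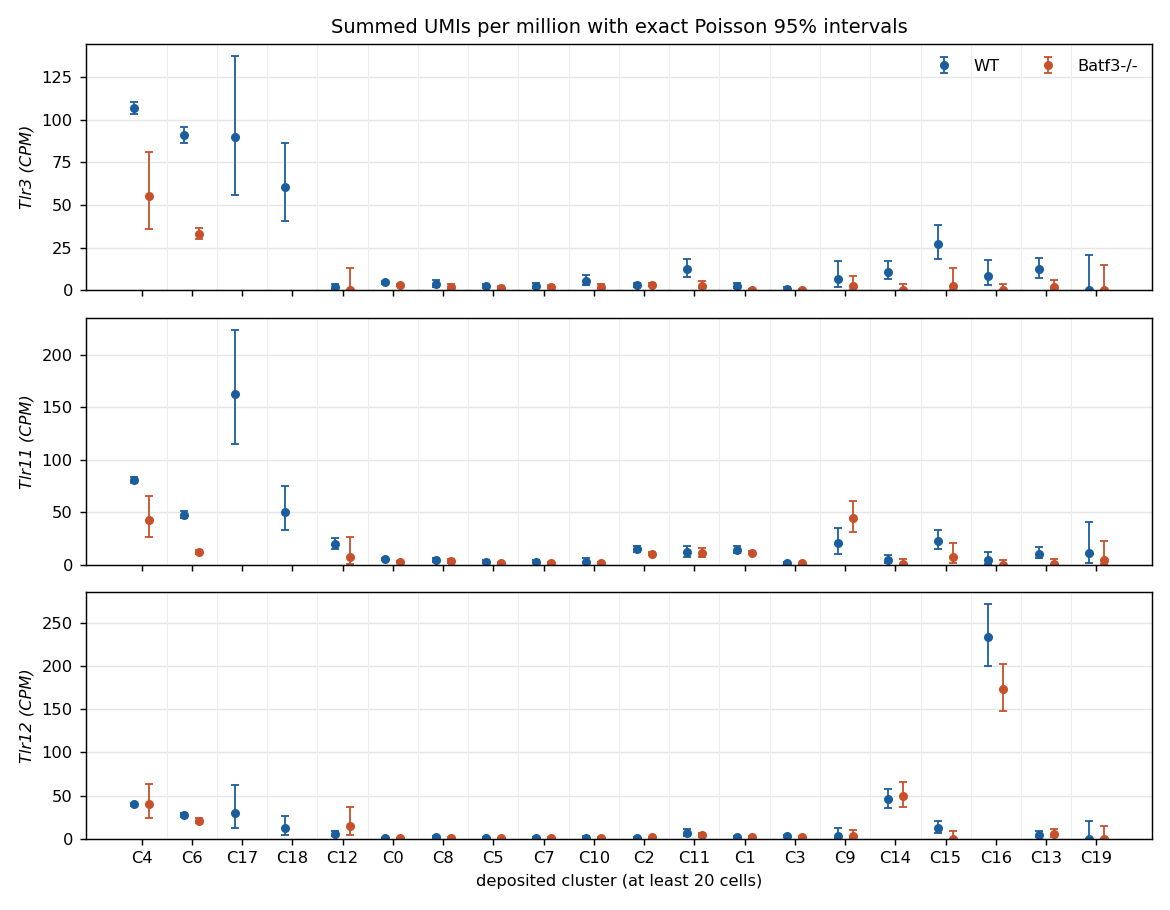
CPM of Tlr3, Tlr11 and Tlr12 (panels, linear axes) in each cluster of at least 20 cells, WT in blue and Batf3-/- in orange; bars are exact Poisson 95% intervals. Tlr3 is at 90.9 CPM in WT and 33.2 CPM in Batf3-/- in C6, Tlr11 is at 44.0 CPM in C9 of Batf3-/-, and Tlr12 is highest in C16 of both libraries.

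Tlr12 was highest in C16, which the study called mixed identity, in both libraries. Its level there was 234 CPM (200 to 272) from 173 UMIs in 58 WT cells and 174 CPM (148 to 203) from 162 UMIs in 68 Batf3-/- cells. The next level was in the pDC cluster C14, at 46.1 CPM (36.1 to 58.1) in WT and 49.9 CPM (37.3 to 65.4) in Batf3-/-, where it overlapped C4 in either library. C16 thus stood apart from every other cluster for this gene in both libraries. Only 12 of 58 WT and 16 of 68 Batf3-/- cells of C16 had no Tlr12 UMI, and 27 cells in each library had at least 3, so that the level did not come from a few cells. Without the marked doublets, WT C16 was at 241 CPM. C16 over C14 gave a log2 ratio for Tlr12 of 2.34 (1.94 to 2.76) in WT and 1.80 (1.34 to 2.28) in Batf3-/-.

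The other endosomal receptors rested on few UMIs in C16. Tlr7 was at 5.41 CPM in WT and 4.29 CPM in Batf3-/-, Tlr3 at 8.11 and 0 CPM, and Tlr13 at 4.06 and 4.29 CPM. Tlr11 was at 4.06 and 0 CPM, Tlr9 at 5.41 and 4.29 CPM, with 4 UMIs in each library and close to its level in C14, and Tlr8 was without a UMI in either. C16 carried 646 and 872 CPM of the pDC markers, 1550 and 1945 CPM of 6 markers of mature DCs, 499 and 541 CPM of 6 cDC2 markers, and 410 and 255 CPM of the cDC1 markers. Among the 10 genes that led C16 over all other WT cells were Pigr, the polymeric immunoglobulin receptor, Bhmt, an enzyme of methionine metabolism, Fabp1, a fatty acid binding protein, and Ackr3, an atypical chemokine receptor. Of the 9 members with at least 20 UMIs, 4 differed by at least 2-fold between C16 and C0 in WT and 3 in Batf3-/-, where 24.9% and 25.0% of all genes did so.

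Tlr7, the sensor of single-stranded RNA, was highest in pDCs and monocytes and low in cDC1. In WT it was at 68.6 CPM (56.2 to 82.9) in C14 and 64.6 CPM (50.7 to 81.0) in C15, then at 35.7 CPM (30.2 to 41.9) in the mature cDC2a cluster C8, 35.3 CPM (21.8 to 53.9) in C9, 27.4 CPM (20.2 to 36.2) in the mature cDC2b cluster C11 and 25.3 CPM (23.2 to 27.5) in C0. C14 and C15 overlapped, and C15 overlapped none of C8, C11 and C0 but did overlap C9. Tlr7 in the Batf3-/- library held the same order at its top, with 51.8 CPM (38.9 to 67.6) in C14, 45.9 CPM (28.0 to 70.8) in C15 and 28.2 CPM (23.4 to 33.7) in C8. There C15 overlapped both C14 and C8, and by the mean of cells C15 lay above C14 in both libraries. In C4 and C6 together, 62 Tlr7 UMIs in WT gave 1.24 CPM and 7 in Batf3-/- 0.502 CPM.

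Tlr13, the sensor of bacterial ribosomal RNA, was highest in monocytes and nearly absent from pDCs. C15 held 58.4 CPM (45.3 to 74.2) in WT and 57.3 CPM (37.1 to 84.6) in Batf3-/-, while the Sirpa+ clusters lay between 9.71 and 21.8 CPM in WT and between 9.69 and 18.4 CPM in Batf3-/-, among them C0 at 18.7 and 18.4 CPM and C11 at 21.8 and 18.4 CPM. C6 held 10.9 and 9.51 CPM. C14 held 5 UMIs (3.2 CPM) in WT and 1 UMI (0.959 CPM) in Batf3-/-. C14 over C0 gave a log2 ratio for Tlr13 of -2.54 (-4.17 to -1.31) in WT and, from that 1 UMI, -4.26 (-9.57 to -1.78) in Batf3-/-. The same contrast for Tlr7 was 1.44 (1.13 to 1.74) and 1.29 (0.85 to 1.69), and for Tlr12 5.89 (5.11 to 6.74) and 6.28 (5.41 to 7.25). In all, 4 of 9 members in WT and 5 of 9 in Batf3-/- differed by at least 2-fold between C14 and C0, where 24.7% and 25.1% of all genes did so.

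**Figure D3:**
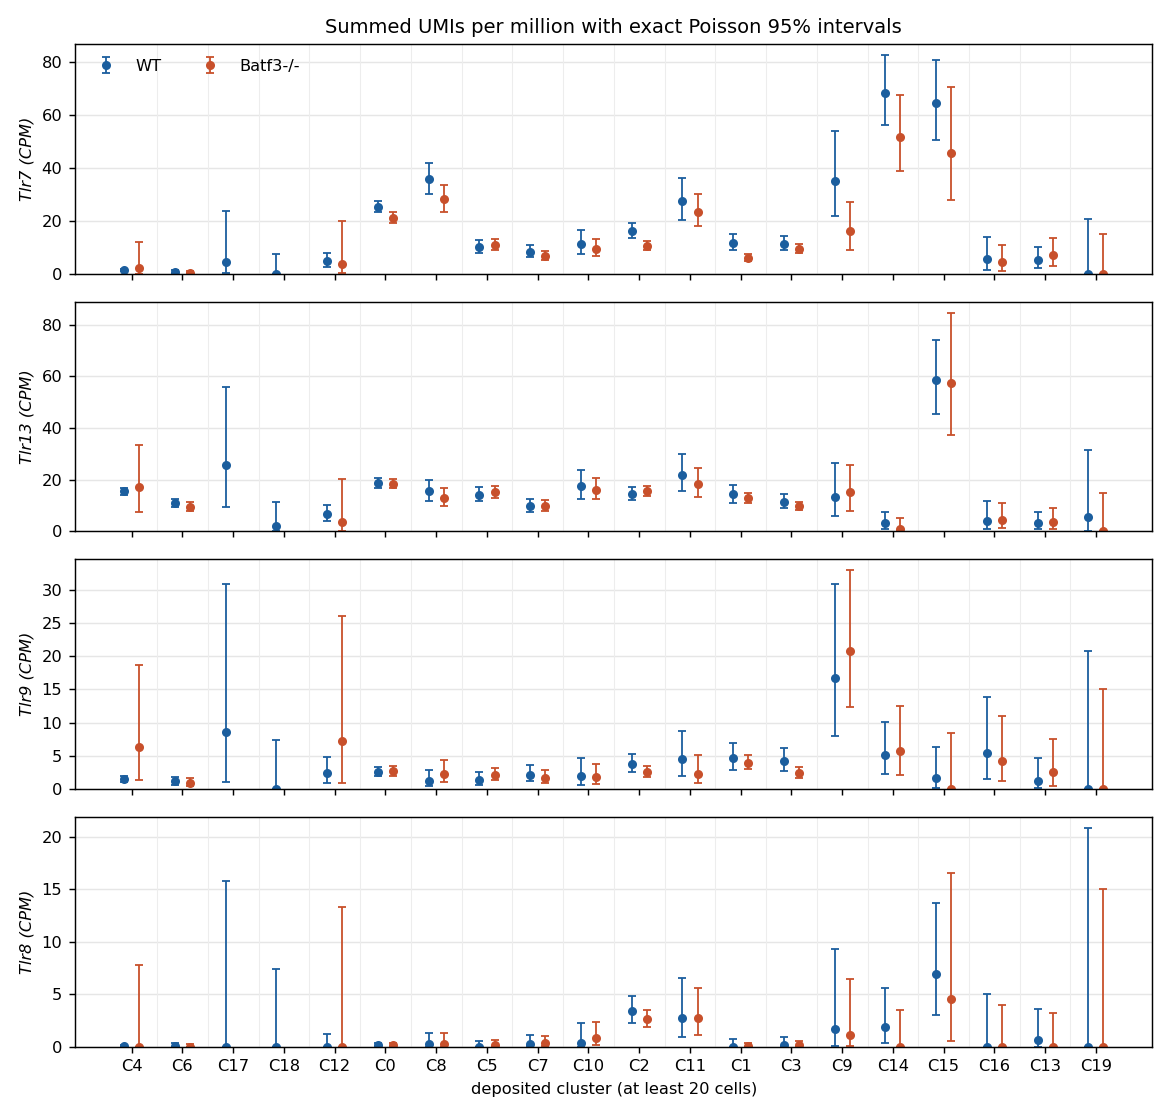
CPM of Tlr7, Tlr13, Tlr9 and Tlr8 (panels, linear axes) in each cluster of at least 20 cells, WT in blue and Batf3-/- in orange; bars are exact Poisson 95% intervals. Tlr7 is highest in C14 and C15, Tlr13 in C15 (58.4 and 57.3 CPM), and Tlr9 and Tlr8 rest on few UMIs, 283 and 57 in the whole WT library.

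Tlr9 and Tlr8 were close to the limit of detection. Tlr9, the CpG DNA sensor, had 283 UMIs in WT and 298 in Batf3-/-. Its highest level was in C9, at 16.8 CPM (8.05 to 30.9) from 10 UMIs in WT and 20.8 CPM (12.4 to 32.9) from 18 UMIs in Batf3-/-. In pDCs (C14), known for this receptor, it was at 5.13 CPM (2.21 to 10.1) and 5.76 CPM (2.11 to 12.5), an interval that overlapped C1 at 4.63 and 3.94 CPM and C0 at 2.57 and 2.65 CPM. Tlr8 had 57 and 66 UMIs, of which the cDC2b cluster C2 held 28 and 40. Its levels were 6.98 CPM (3.01 to 13.8) in C15 of WT and 3.38 CPM (2.25 to 4.88) and 2.61 CPM (1.86 to 3.55) in C2 of WT and Batf3-/-. Within C2, cells that SingleR labelled monocyte held Tlr8 at 5.95 CPM (3.58 to 9.29) in WT and 5.26 CPM (3.37 to 7.83) in Batf3-/-, and those labelled DC 1.58 CPM (0.68 to 3.11) and 1.49 CPM (0.85 to 2.41). The intervals of the 2 labels did not overlap in either library; since SingleR labels were set on the same transcripts, this is a description. C15 over C2 gave log2 ratios of 2.00 (1.57 to 2.42) and 2.13 (1.38 to 2.80) for Tlr7 and 2.01 (1.56 to 2.46) and 1.88 (1.23 to 2.48) for Tlr13 in WT and Batf3-/-, and 6 of 10 members in WT and 2 of 10 in Batf3-/- differed by at least 2-fold, where 16.4% and 19.2% of all genes did so.

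The chaperone and the adaptors were found in most clusters. Unc93b1 was at 570 CPM (477 to 675) in C17 and 561 CPM (524 to 599) in C14 of WT, at 391 CPM (383 to 400) in C0, 387 CPM (381 to 394) in C4 and 325 CPM (316 to 334) in C6, and at 28.3 CPM from 5 UMIs in the stem cell cluster C19. In Batf3-/- the pDC level was 559 CPM (515 to 607), followed by C9 at 440 CPM (397 to 487) and C11 at 389 CPM (365 to 414). For the chaperone, pDCs thus stood above C4, C6 and C0 in both libraries and overlapped C17 in WT. Myd88, the adaptor of all these receptors but TLR3, was highest in the mitotic cDC2a cluster C10, at 102 CPM (89.9 to 116) in WT and 110 CPM (99.9 to 121) in Batf3-/-, and at 70.2 CPM in C0 and 45.5 CPM in C4 of WT. Ticam1, the adaptor of TLR3, was at 17.5 CPM (14 to 21.6) in C1, 14 CPM (12.8 to 15.3) in C4, 13.8 CPM (9.91 to 18.7) in the mature cDC1 cluster C12 and 7.15 CPM in C0 of WT, with C1, C4 and C12 overlapping. In Batf3-/- it was at 23.4 CPM in C4, from 11 UMIs, and 19.3 CPM (17.1 to 21.8) in C1.

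In C6, the mitotic cDC1 cluster and the cDC1 cluster with many cells of both genotypes (797 WT, 727 Batf3-/-), Tlr3 and Tlr11 were lower in Batf3-/-. Tlr3 went from 90.9 CPM in WT to 33.2 CPM (2.74-fold lower, log2 ratio -1.45, 95% interval -1.61 to -1.30), and Tlr11 from 47.4 to 12.2 CPM (3.89-fold lower, -1.96, -2.21 to -1.71). Tlr12 went from 27.3 to 21.0 CPM (-0.38, -0.60 to -0.16), which did not reach 2-fold. Myd88 was at 42.3 CPM in WT and 65.5 CPM in Batf3-/- (0.63, 0.49 to 0.78), Unc93b1 at 325 and 291 CPM (-0.16, -0.22 to -0.10), Tlr13 at 10.9 and 9.51 CPM (-0.20, -0.54 to 0.14), Ticam1 at 9.65 and 10.6 CPM (0.14, -0.20 to 0.48) and Tlr9 at 1.15 and 0.965 CPM (-0.25, -1.40 to 0.86). The intervals of Tlr13, Ticam1 and Tlr9 held 0. Those of Tlr3, Tlr11, Tlr12, Myd88 and Unc93b1 lay apart from 0, where 39.9% of all genes had such an interval. Of the 8 members with at least 20 UMIs, 2 were at least 2-fold lower and 0 higher, where 4.43% of all 11122 genes were lower and 3.93% higher. With 1 library per genotype, neither the share nor the ratios carry the spread between animals.

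**Figure D4:**
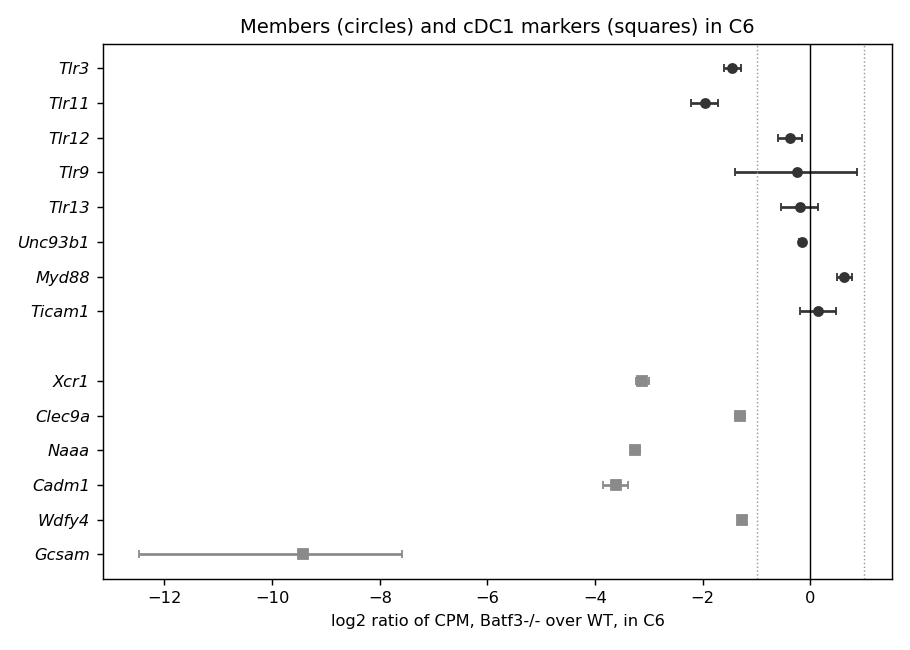
log2 ratio of CPM, Batf3-/- over WT, in C6 (x axis) for the 8 members with at least 20 UMIs (circles) and the 6 cDC1 markers (squares), with exact 95% intervals; dotted lines mark 2-fold. Tlr3 (-1.45) and Tlr11 (-1.96) lie left of the 2-fold line, with the 6 markers from -1.26 to -9.43, and Tlr12 and the adaptors lie inside it.

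The cDC1 markers moved in the same cluster and the same direction. Xcr1 went from 397 to 45.7 CPM, Clec9a from 203 to 82.1 CPM, Naaa from 941 to 98.8 CPM, Cadm1 from 151 to 12.3 CPM, Wdfy4 from 465 to 194 CPM and Gcsam from 103 to 0.149 CPM, so that 6 of 6 were at least 2-fold lower, and the 6 cDC2 markers went in sum from 44.1 to 204 CPM. The part of this change in the make-up of C6 in the Tlr3 and Tlr11 ratios was not tested. Per 1000 UMIs of the cDC1 markers, C6 held 40.2 Tlr3 UMIs in WT and 76.7 in Batf3-/-, 21.0 and 28.1 Tlr11 UMIs, and 12.1 and 48.5 Tlr12 UMIs, so that each of the 3 receptors was lower by less than the summed markers. Taken singly, Clec9a and Wdfy4 were lower by less than Tlr3 and Tlr11, and Xcr1, Naaa, Cadm1 and Gcsam by more. Gcsam was without a UMI in most Batf3-/- clusters, C4 among them, so that its low level was not particular to C6.

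The lower Tlr3 level in Batf3-/- was spread over the cells of C6 and was seen in S and in G2M cells. No Tlr3 UMI was found in 196 of 797 WT cells (24.6%) and in 438 of 727 Batf3-/- cells (60.2%), and at least 3 were found in 26.6% and 4.4%. Tlr11 was without a UMI in 44.0% of WT and 81.2% of Batf3-/- cells, and Tlr12 in 61.7% and 72.4%, at medians of 19599 and 18019 UMIs per cell. The authors' phase calls put 1.63% of WT and 26.0% of Batf3-/- C6 cells in G1, 59.5% and 48.7% in S, and 38.9% and 25.3% in G2M. Within S cells the log2 ratios were -1.43 for Tlr3, -1.95 for Tlr11 and 0.63 for Myd88, and within G2M cells -1.40, -2.71 and 0.42, so that these directions held within both phases. Ticam1, in contrast, was at -0.10 (-0.60 to 0.39) in S cells and -0.48 (-1.18 to 0.19) in G2M cells, against 0.14 over all cells of C6. In C4, where Batf3-/- had 31 cells, Tlr3 was at 107 and 55.2 CPM (log2 ratio -0.95, -1.57 to -0.40), Tlr11 at 80.3 and 42.5 CPM (-0.92, -1.63 to -0.29) and Tlr12 at 39.8 and 40.4 CPM (0.02, -0.72 to 0.67). Of 9 members there, 1 differed by at least 2-fold, Tlr9 from 3 Batf3-/- UMIs, where 15.1% of all genes did so.

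Over the 7 lists of other pathway genes, 4 of 56 tested genes were at least 2-fold higher and 1 lower in C6 of Batf3-/-, near the 8.36% of all genes past 2-fold. Of the 15 tested genes of the Myd88 branch, the 6 of the Ticam1 branch, the 6 negative regulators and the 4 nucleases that prepare or destroy ligands, 0 differed by at least 2-fold. Of 10 genes of folding, trafficking and cleavage, 1 was higher in Batf3-/-, Slc15a4, a lysosomal histidine transporter needed for TLR7 and TLR9 responses, from 18.7 to 39.1 CPM (log2 ratio 1.06, 0.85 to 1.27). Among 7 surface receptors and partners, Tlr1 went from 2.94 to 14 CPM (2.25, 1.78 to 2.75), Tlr4 from 1.73 to 4.6 CPM (1.42, 0.74 to 2.12) and Ly96, the partner of TLR4, from 8.69 to 3.71 CPM (-1.23, -1.73 to -0.75). Among 8 cytosolic sensors and adaptors, Tmem173 (STING) went from 23.1 to 57.5 CPM (1.32, 1.13 to 1.5). Tlr1, Slc15a4 and Tmem173 are also genes that were lower in C4 than in C0 of WT: Tlr1 at 4.21 and 31.4 CPM, Slc15a4 at 22.4 and 81.3 CPM and Tmem173 at 21.5 and 59.4 CPM. Over the lists, 12 of 59 tested genes were at least 2-fold lower in C4 than in C0 and 4 higher. Of all genes, 15.8% were lower and 10.1% higher in that contrast. Tlr4 and Ly96 are not described for it here.

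Over the 9 Sirpa+ clusters (cDC2a C0, C5, C7, C8 and C10, cDC2b C2 and C11, Il4i1+ C1, Sox4+ C3), 9 of 10 members were within 2-fold between the libraries, and the intervals of 5 of the 10 lay apart from 0, where 40.2% of all genes had such an interval. The mitochondrial cDC2 cluster C9 was not among the 9; with it the Tlr11 log2 ratio was -0.26 in place of -0.33, and the other members moved by less than their intervals. Tlr3 was at 3.64 CPM (3.18 to 4.14) in WT and 1.8 CPM (1.54 to 2.09) in Batf3-/-, a log2 ratio of -1.02 (-1.31 to -0.72), from 230 and 172 UMIs. It was the 1 of 10 members past 2-fold, where 3.25% of all 13746 genes were. Tlr7 went from 18.4 to 13 CPM (-0.50, -0.62 to -0.38), Tlr11 from 6.13 to 4.88 CPM (-0.33, -0.53 to -0.13), Unc93b1 from 338 to 296 CPM (-0.19, -0.22 to -0.16) and Ticam1 from 7.83 to 10.5 CPM (0.42, 0.26 to 0.58). The intervals of Tlr12 (-0.04), Tlr8 (0.02), Tlr9 (-0.11), Tlr13 (-0.11) and Myd88 (0.02) held 0. The cDC1 markers were lower in the same pooled clusters, with log2 ratios of -0.55 for Xcr1, -0.47 for Clec9a, -0.69 for Naaa, -0.15 for Cadm1, -0.58 for Wdfy4 and -6.75 for Gcsam, and their sum ranged over the 9 clusters from 164 to 399 CPM in WT and from 77.7 to 267 CPM in Batf3-/-. Gcsam was without a UMI in most Batf3-/- clusters, C4 and C14 among them, so that its ratio was not particular to Sirpa+ clusters. It is also part of the summed markers. The part of cDC1 RNA in the Tlr3 ratio was not tested. The pool also weighed the clusters differently in each library. C1 held 721 WT and 1845 Batf3-/- cells, and C3 held 704 and 1541. The unweighted mean of the cluster ratios, given below, lay further from 0 than the pooled ratio for Tlr3 and Tlr11. For Tlr7 and Unc93b1 it lay nearer 0. That mean gives clusters with few UMIs the same weight as the others. Beyond this, the part of the cluster make-up in the pooled ratios was not tested.

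Cluster by cluster, the genotype ratios of the members differed in how uniform they were. Of the 18 clusters with at least 20 cells in both libraries, Ticam1 reached 20 UMIs in 14 and was higher in Batf3-/- in 14 of 14. Its log2 ratios were 0.07 to 1.07 with a median of 0.40, although the interval lay above 0 in only 2. By the mean of cells, C12 turned to the other direction. In C6 the Ticam1 ratio was -0.10 within S cells and -0.48 within G2M cells. The share of all genes that held a single direction in every cluster was not counted. Over all genes tested, a median of 6.43% (3.92% to 19.2% by cluster) had an interval below 0 and 7.09% (4.48% to 20.7%) above 0. Tlr3 had an interval below 0 in 7 of 11 clusters, Tlr11 in 6 of 13, Tlr7 in 4 of 13 and Unc93b1 in 7 of 18. Intervals narrow as UMIs rise, and the share over all genes was not matched for UMIs. Unc93b1 had 42307 UMIs in WT and a median log2 ratio of only -0.11 over the clusters. Tlr13 had 0 of 14 intervals on either side of 0. Myd88 had an interval above 0 in 3 of 17 clusters, C4, C5 and C6. In C9 the Tlr11 level was higher in Batf3-/- (log2 ratio 1.13, 0.16 to 2.20) while Tlr7 was at 35.3 CPM in WT and 16.2 CPM in Batf3-/- (-1.12, -2.21 to -0.08), the 2 of 7 members past 2-fold there, where 5.13% of all genes were. Of the 60 tested genes of the 7 pathway lists, 0 differed by at least 2-fold in the pooled Sirpa+ clusters, where 3.25% of all genes did so.

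Mature cDC1 held fewer Tlr3, Tlr11 and Tlr12 transcripts than immature cDC1 in WT, where C12 (mature) was set against C4 (immature). Tlr3 went from 107 CPM in C4 to 1.68 CPM in C12, from 5 UMIs in 394 cells (63.5-fold lower, log2 ratio -5.99, -7.61 to -4.76). Tlr12 went from 39.8 to 5.39 CPM (-2.88, -3.70 to -2.18) and Tlr11 from 80.3 to 19.5 CPM (-2.04, -2.44 to -1.66). The 3 receptors thus differed in the size of the ratio, and their intervals set Tlr3 apart from the other two. Tlr13 (-1.21), Unc93b1 (387 to 176 CPM, -1.14) and Myd88 (45.5 to 20.9 CPM, -1.12) were also lower, Ticam1 was at 14 and 13.8 CPM (-0.02, -0.52 to 0.44), and Tlr7 was higher, from 1.43 to 4.72 CPM (1.72, 0.75 to 2.60). Without marked doublets the Tlr7 ratio was 2.75. Of 9 members, 6 were at least 2-fold lower and 1 higher, where 24.2% of all 11397 genes were lower and 15% higher. The summed cDC1 markers were at 2807 CPM in C4 and 308 CPM in C12, and the 6 markers of mature DCs at 432 and 6211 CPM.

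In the same contrast, 13 of 57 tested genes of the pathway lists were at least 2-fold higher and 8 lower, where 15% of all genes were higher and 24.2% lower. Of 6 tested genes of the Ticam1 branch, 4 were higher: Tank (log2 ratio 2.85), Traf3 (2.30), Ticam2 (1.87) and Tbk1 (1.14), the last a kinase that activates IRF3; the median of the list was 1.5, against -0.24 over all genes tested. Of 6 negative regulators, 4 were higher, among them the ubiquitin-editing enzyme Tnfaip3 (2.49) and Socs1 (1.21), with a median of 1.17. In the Myd88 branch of 15 genes, Traf6 (1.95) and Ikbkb (1.90) were higher and Tirap (-1.64) and Irf7 (-1.31) lower. Of the 10 trafficking genes, Lgmn, an endosomal protease that can cleave these receptors, went from 29.9 to 147 CPM (2.30), and Hsp90b1 (gp96), a chaperone of Toll-like receptors, went from 593 to 142 CPM (-2.06).

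**Figure D5:**
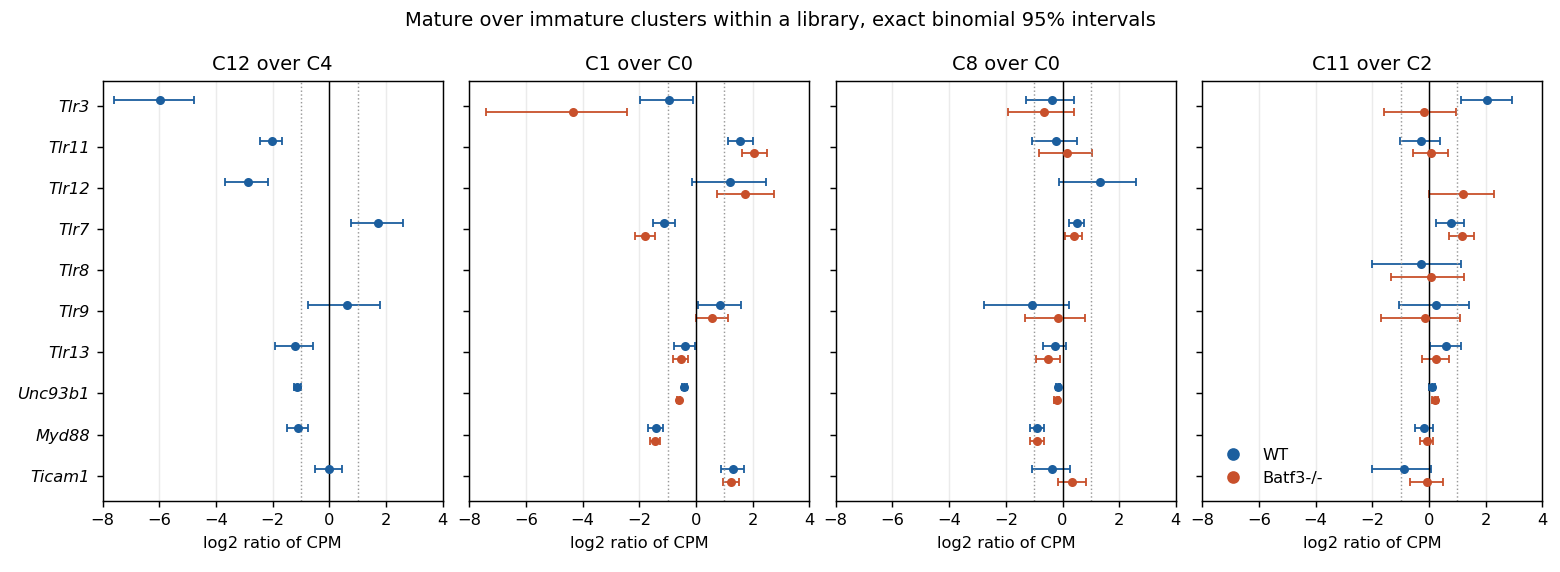
log2 ratio of CPM (x axis) of a mature over an immature cluster within a library for the 10 genes, WT in blue and Batf3-/- in orange, with exact 95% intervals; dotted lines mark 2-fold and genes under 20 UMIs are left out. Tlr3 lies furthest left in C12 over C4 (-5.99), and in C1 over C0 Tlr11 and Ticam1 lie right of 0 and Tlr7 and Myd88 left of it in both libraries.

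Among cDC2, the contrast of C1 (Il4i1+ mature) with C0 (immature cDC2a) could be read in both libraries. Tlr11 was at 4.81 CPM in C0 and 14.3 CPM in C1 of WT (log2 ratio 1.57, 1.11 to 2.02) and at 2.74 and 11.4 CPM in Batf3-/- (2.05, 1.61 to 2.51), the opposite direction to C12 over C4. Ticam1 was also higher in C1, from 7.15 to 17.5 CPM (1.29, 0.90 to 1.68) and from 8.14 to 19.3 CPM (1.25, 0.97 to 1.53). Tlr7 was lower, from 25.3 to 11.7 CPM (-1.11, -1.53 to -0.72) and from 21.3 to 6.13 CPM (-1.79, -2.15 to -1.46), and Myd88 was lower, from 70.2 to 26.3 CPM (-1.41) and from 71.0 to 26.3 CPM (-1.44). The adaptor of Tlr3 and the adaptor of the other receptors thus differed between C1 and C0 in opposite directions in both libraries. Of 9 members, 5 in WT and 6 in Batf3-/- differed by at least 2-fold, where 20.8% and 22.7% of all genes did so; the sixth was Tlr3, at 2 UMIs in C1 of Batf3-/- (-4.35, -7.42 to -2.44). The interval of Tlr12, which was past 2-fold in both, held 0 in WT (1.22, -0.13 to 2.46). In C8 over C0 and in C11 over C2, Tlr11 and Ticam1 were within 2-fold in both libraries. Their higher level in C1 was thus not shared by the other mature cDC2 clusters. For Tlr11, the immature cDC2b cluster C2 was near C1.

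Over the pathway lists, 8 genes were higher and 3 lower of 59 tested in C1 over C0 of WT, and 8 and 6 in Batf3-/-, where 10.3% of all genes were higher and 10.5% lower in WT and 12.2% and 10.5% in Batf3-/-. Tnfaip3 (2.17 in WT, 2.00 in Batf3-/-), Socs1 (2.03, 1.63), Tank (1.40, 1.31), Traf6 (1.22, 1.23) and Ly96 (1.94, 2.09) were higher in C1 and Irf7 (-1.13, -1.5) was lower. Tlr4, the lipopolysaccharide receptor, was lower in C1, at 0.201 CPM in WT and 0.438 CPM in Batf3-/- (-3.29, -2.76). These levels rested on few UMIs, under 3 in WT, where C1 held 4971606 UMIs of all genes. In the other mature cDC2 clusters, set against the immature cluster of the same subtype, fewer members and a lower share of all genes passed 2-fold. In C8 over C0, Tlr7 was at 35.7 and 25.3 CPM in WT (0.50, 0.23 to 0.76) and at 28.2 and 21.3 CPM in Batf3-/- (0.41, 0.10 to 0.70), and Myd88 was lower, with a log2 ratio of -0.90 in both. There, 2 of 9 members in WT and 0 of 8 in Batf3-/- passed 2-fold, where 13% and 14% of all genes did so. In C11 over C2, Tlr7 was at 27.4 and 16.2 CPM in WT (0.76, 0.26 to 1.24) and at 23.5 and 10.5 CPM in Batf3-/- (1.16, 0.71 to 1.60), and 1 of 9 members in WT and 2 of 10 in Batf3-/- passed 2-fold, where 8.07% and 7.65% of all genes did so. The member in WT was Tlr3 (3.02 CPM in C2, 12.3 CPM in C11, 2.03, 1.13 to 2.91), which was at 3.13 and 2.74 CPM in Batf3-/- (-0.19, -1.58 to 0.96). The 6 macrophage markers were at 126 CPM in C2 and 2843 CPM in C11 of WT and at 115 and 2256 CPM in Batf3-/-. Within C11, Tlr7 was at 43.4 CPM (15.9 to 94.4) in macrophage-labelled and 27.0 CPM (18.3 to 38.3) in DC-labelled cells of WT, and at 68.6 CPM (36.5 to 117) and 17.8 CPM (12.4 to 24.9) in Batf3-/-. Tlr3 was at 28.9 CPM (4 UMIs) and 10.4 CPM (12 UMIs) in these WT cells, and the part of macrophages in the C11 ratios was not tested.

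The genes with the most similar pattern over the 19 WT clusters were found for each member by Pearson r of log2(CPM + 1) among genes with at least 500 UMIs, as a description. For Tlr3 these were Ppt1 (r = 0.97) and Rab7b (0.97), a lysosomal thioesterase and a late endosomal GTPase, and the cDC1 marker Naaa (0.94). For Tlr11 they were Pde1b (0.96), Gramd2 (0.92) and Hepacam2 (0.91). For Tlr12 Mpeg1 and Gm3336 were named (both 0.85), for Tlr7 Fam43a, Inpp5f and Fgr, and for Tlr13 Soat1, Nckap1l and Lipe. For Unc93b1 the values were lower, with Anks1 and Jmjd8 (both 0.78), and for Ticam1 Mx1 (0.79), Tspan33 and Col27a1. Myd88 was closest to Smim15, Rap1a and Eno1, Tlr9 to Fbxw5, Iffo1 and D730003I15Rik, and Tlr8, from 57 UMIs, to Naip2 and Pla2g7. In the 15 Batf3-/- clusters of at least 50 cells, which leave out C4, C12, C17 and C18, r was 0.54 for Tlr3 with Ppt1 and 0.88 with Rab7b. It was 0.27 for Tlr11 with Gramd2, 0.43 with Hepacam2 and 0.27 for Myd88 with Smim15, while Tlr7 with Fam43a was at 0.90 and Tlr13 with Soat1 at 0.91.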

How the data were processed

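Per the labels and the study's methods, the authors sorted cells, made 10x Genomics Chromium v3 libraries, converted base calls with bcl2fastq (2.2.0), and counted reads with Cell Ranger on the mm10 genome (GRCm38), whose aggregation step evened the sequencing depth of the libraries. The authors deposited whole-number UMI counts per gene and cell, and per cell the mitochondrial and ribosomal fraction, the Seurat (3.0.5) clusters at resolution 0.5, cell cycle phases and SingleR labels. They kept cells with 500 to 5000 genes, at most 20% mitochondrial and 50% ribosomal UMIs; all 24343 deposited cells pass these limits. The count tables carry no gene names on their rows; the order of the gene list was checked against the deposited totals and fractions, which matched in all 24343 cells within 1e-09.

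Deposited counts were summed per cluster and library (Python 3.11.15, scipy 1.17.1) and divided by all UMIs of those cells (CPM). Levels have exact Poisson intervals, log2 ratios exact intervals from the binomial split of the UMIs, and shares Clopper-Pearson intervals, all at 95%. Genes with at least 20 UMIs over both sides entered the counts past 2-fold; a gene at 0 on one side was set to 3 UMIs there. Doublets were marked with Scrublet (scanpy 1.11.5, expected rate 0.1) in each library and kept. Cells were thinned to 1000 UMIs for shares, which left out 28 WT and 42 Batf3-/- cells. Each genotype is 1 library from pooled mice, so that no replicate, test or p-value exists. The members, pathway lists and markers were chosen with earlier results of these data known. The text names the 10 members, at most 4 genes of each pathway list past 2-fold per contrast, the 3 genes most similar to each member, of which some are not reported here, and Batf3. RefSeq promoter windows were found for 8 of the 10 members. The intervals and the 2-fold rule were tested on Poisson counts drawn from the means of C6, and the thinning on simulated draws. Such counts hold no spread between cells beyond counting error. The other steps were not tested in this way. Alternatives tried were the mean of cells, a total without mitochondrial and ribosomal UMIs, leaving out doublets or shared barcodes, adding C9, single phases, a minimum of 100 UMIs, other thinning depths and other measures of similarity.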

Additional observations from a re-analysis of the deposited data

Results flagged for a closer look

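The genotype ratio of Tlr11 pointed in opposite directions in 2 clusters. The log2 ratio of Batf3-/- over WT was 1.13 in C9 (20.2 CPM in WT, 44.0 CPM in Batf3-/-, from 12 and 38 UMIs) and -1.96 in C6 (47.4 and 12.2 CPM, from 741 and 164 UMIs). With 1 library per genotype the difference between the clusters was not tested. C9 holds cells of low depth, with medians of 1467 and 1487 UMIs. The summed cDC1 markers in C9 were at 415 CPM in WT and 219 CPM in Batf3-/-, the direction opposite to Tlr11 there. No group had the 4 samples that a search for outlying samples needs.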

How the results depend on the processing

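No paired analysis was possible because each genotype is 1 library, and for the same reason no library could be left out. Leaving aside the G1 cells of C6, no member ratio whose interval lay apart from 0 changed direction under the alternatives run. This covers C6, the Sirpa+ clusters and the mature clusters. Ratios with an interval that held 0 changed direction in a few cases: Ticam1 in C6 (0.14 over all cells, -0.10 in S and -0.48 in G2M cells) and in C12 over C4, Tlr8 in the Sirpa+ clusters and in C11 over C2 of WT, Tlr9 in C8 over C0 and Tlr11 in C11 over C2 of Batf3-/-. The G1 cells of C6 numbered only 13 in WT. They gave 0.01 (-0.35 to 0.39) for Unc93b1 and, from 1 WT UMI, 1.44 for Tlr13. Both ratios lay below 0 over all cells of C6. In C6, G2M cells alone gave -2.71 for Tlr11, -0.66 for Tlr12, -0.55 for Tlr13, -0.22 for Unc93b1 and 0.42 for Myd88. For Tlr12, S cells gave -0.28 (-0.57 to 0.009) and G1 cells -0.43 (-1.64 to 1.08). Both of these intervals held 0. Without mitochondrial and ribosomal UMIs, Unc93b1 was at -0.093 in C6, -1.29 in C12 over C4 and -0.69 in C1 over C0 of Batf3-/-. Without marked doublets, C12 over C4 was 2.75 for Tlr7, -1.27 for Unc93b1 and -1.60 for Myd88. The unweighted mean of the Sirpa+ clusters was -1.41 for Tlr3, -0.64 for Tlr11, -0.34 for Tlr7, -0.13 for Unc93b1 and 0.094 for Myd88. With a minimum of 100 UMIs, 471 genes in C6 (930 at 20) and 145 in the Sirpa+ clusters (447 at 20) passed 2-fold, by construction among fewer genes. Of the 30 most similar genes, 12 stayed with Spearman's rho and 15 without C17 and C18; the cause was not tested. The highest cluster changed in 8 cases: with the mean of cells, Tlr7 was highest in C15 in both libraries, Tlr11 of Batf3-/- in C4 (also without mitochondrial and ribosomal UMIs) and Tlr8 of Batf3-/- in C11, and Unc93b1 of WT was highest in C14 in 3 settings. Leaving out the shared barcodes (18 ratios) and adding C9 to the Sirpa+ clusters (10 ratios), both chosen after seeing the data, moved no ratio outside its counting interval. Depth limits Tlr8 and Tlr9, and in Batf3-/- all members in C4 and C12, and no interval here holds the spread between animals or sorts.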

Other observations

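Most nucleases and some of the proteases that prepare ligands and receptors in endosomes were higher in pDCs (C14) than in C0 in both libraries. Of 5 nucleases, 4 were at least 2-fold higher in C14 than in C0 in WT and 4 in Batf3-/-, where 14.2% and 13.7% of all genes were higher. Rnaset2b, an RNase that frees ligands of TLR7 and TLR8, was at 18.2 CPM in C0 and 66.6 CPM in C14 of WT (log2 ratio 1.88) and at 18.8 and 78.7 CPM in Batf3-/- (2.07). Pld4, a 5′ exonuclease that degrades ligands of TLR7 and TLR9, was at 332 and 788 CPM in WT (1.25) and at 322 and 835 CPM in Batf3-/- (1.37). Of 10 folding, trafficking and cleavage genes, 3 were higher in each library: the cathepsins Ctsl (7.52 in WT, 7.56 in Batf3-/-) and Ctsb (2.77, 2.87), and the chaperone Hsp90b1 (2.07, 2.00). The other 7 were within 2-fold, among them the proteases Ctss (-0.04, 0.17) and Lgmn (0.03, 0.41). Over all 7 pathway lists, 12 genes were higher and 10 lower of 58 tested in WT, and 9 higher and 11 lower of 58 in Batf3-/-, where 10.5% and 11.4% of all genes were lower. Irf7, the interferon regulatory factor downstream of TLR7 and TLR9, was at 76.6 and 320 CPM in WT (2.06) and at 67.8 and 278 CPM in Batf3-/- (2.04). The cytosolic RNA sensor Ddx58 (RIG-I) was lower in C14, from 46.5 to 7.05 CPM in WT (-2.72) and from 39.2 to 4.8 CPM in Batf3-/- (-3.03).

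Cytosolic sensors also differed between immature cDC1 and immature cDC2a in WT. In C4, Ddx58 was at 3.34 CPM against 46.5 CPM in C0 (log2 ratio -3.80), Ifih1 (MDA5) at 16.9 against 50.1 CPM (-1.56) and Tmem173 at 21.5 against 59.4 CPM (-1.46). Of 8 cytosolic sensors and adaptors, 4 were at least 2-fold lower in C4 and 0 higher, where 15.8% of all genes were lower. Among surface receptors, Tlr5, the flagellin receptor, was at 0.41 CPM in C4 and 8.25 CPM in C0 (-4.33). Ticam2, the bridging adaptor of TLR4 to TICAM1, was at 1.76 and 22.9 CPM (-3.70).

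The Sox4+ cDC cluster C3 differed from C0 in several members in both libraries. Tlr12 was higher in C3, at 2.92 CPM against 0.779 CPM in WT (1.90, 0.86 to 2.95) and 1.98 against 0.64 CPM in Batf3-/- (1.63, 0.67 to 2.66). Tlr3 was lower, at 0.972 against 4.72 CPM in WT (-2.28) and 0.198 against 2.97 CPM in Batf3-/- (-3.91), and Tlr11 was lower, at 1.46 against 4.81 CPM (-1.72) and 1.19 against 2.74 CPM (-1.21). Tlr7 was lower, at 11.3 against 25.3 CPM in WT (-1.16) and 9.43 against 21.3 CPM in Batf3-/- (-1.17). C3 carried 1235 CPM of the pDC markers in WT and 1281 CPM in Batf3-/-, against 189 and 182 CPM in C0. Of 9 members, 4 passed 2-fold in each library, where 14.2% and 14.3% of all genes did so.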
